A study of Rattus norvegicus with 6 samples.

Results

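Genes for laminin chains and integrin chains were followed in rat (Rattus norvegicus) cells labelled as neuroepithelial progenitor cells, the dividing cells that build the neural tube. The members were every row of type main in the authors' normalized array table whose symbol began with Lama, Lamb or Lamc and a digit, or with Itga or Itgb and a digit or 1 of the single letters D, E, L, M, V or X. This rule matched 37 rows with 36 symbols, out of 20258 tested rows with 19634 symbols. They were 10 laminin chains, 23 integrin chains and 3 genes that match only because their names hold an integrin symbol (Itgb1bp1, Itgb1bp2 and Itgb3bp, for integrin-binding proteins). Lama4 alone had 2 rows, and its row of higher mean stands for it unless said otherwise. Lamb1, Itgav, Itgae and Itgb3 were not analysed here.

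The study compared 3 control samples with 3 retinoic acid samples, all collected at stage E10.5 (days of embryonic development). Dams of the retinoic acid group were given 60 mg/kg of all-trans retinoic acid in olive oil by gavage, and dams of the control group olive oil alone. Cells were sorted by flow cytometry, and each sample was a pool of biological replicates, so n is 3 pools per group throughout. A p-value reflects pool-to-pool spread and no spread beyond it. For each row limma draws the estimate of that spread towards the one shared by all rows. The sources used here do not give the strain, the genotype, the sorting gate, the number of embryos in a pool or the interval from dosing to collection. Synthetic spike-in RNA of one mix went into every control and of another mix into every retinoic acid sample. Values are log2 levels as the authors normalized them, so a difference of 1 is a doubling, and each SE, 95% confidence interval and adjusted p is from limma across all 20258 rows.

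Laminins are large cross-shaped proteins of the basement membrane, each made of an alpha, a beta and a gamma chain, and they lie under the neuroepithelium and around blood vessels and muscle. Integrins are receptors made of an alpha and a beta chain that span the cell membrane, bind laminins, collagens, fibronectin or cell-surface partners outside the cell, and link them to the actin cytoskeleton inside. In the embryo the neural plate and tube sit on a laminin-rich basement membrane that neuroepithelial cells hold through integrins and dystroglycan.

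The differences between the groups were small. Of the 36 members, 5 were called lower after retinoic acid at an adjusted p under 0.05 and 0 were called higher. Over all tested rows 2.06% were called lower, 7.69% were called higher and 9.75% were called in either direction. At an unadjusted p under 0.05 there were 8 members lower and 1 higher, beside 5.53% and 16.5% of all rows. The count lower was 2 without control pool 1 and 3 without retinoic acid pool 1. The called members were Itgb8, Itga8, Itga1, Lama4 and Itgb1bp2, which fell by 1.17-fold to 1.33-fold. The main chains of the neuroepithelial laminin and its receptors, Lama1, Lama5, Lamc1, Itga3, Itga6 and Itgb1, were not called in either direction. Shifts of this size can be missed. In simulated data of the same spread, a shift of 0.25 log2 units was recovered in 10.4% of the rows given it, and a shift of 0.5 in 80.6%. Only 67 rows were given each of these shifts and 66 a shift of 1, far fewer than the 9.75% of rows called here. The adjusted threshold was therefore stricter in the simulation, so these shares do not give the recovery in these data.

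Across the set 24 of 36 members (66.7%) had a difference below 0, against 37.6% of all tested rows. The median difference of the members was −0.045, against 0.033 over all rows, and the members ranged from −0.41 to 0.23. Among the 33 laminin and integrin chains the share below 0 was 63.6% and the median −0.035. By pool, the median deviation of the members from the control mean was −0.028 to 0.016 in the controls. It was −0.022, −0.088 and −0.014 in retinoic acid pools 1, 2 and 3, so only pool 2 lay outside the control range. After quantile and cyclic loess normalization the median over all rows was −0.0011 and −0.0003 and that of the members −0.061 and −0.067. Without retinoic acid pool 2 the members' median was −0.019 (0.043 over all rows), and among rows above the median level it was −0.097 (0.060). A reference for weak signal came from 1220 rows of olfactory receptor genes, which had a median level of 5.47 and a 95th percentile of 6.17. Mean levels of 25 members lay above 6.17, as did those of 65.5% of all tested rows. All 5 calls fell among these 25 members, 19 of which had a difference below 0. Among rows above that level 2.89% were called lower and 11.4% higher. The remaining 11 members, Lama2, Lama3, Lamb3, Itga7, Itga10, Itga11, Itgb6, Itgb7, Itgam, Itgax and Itgad, stayed within the olfactory receptor range, with differences of −0.07 to 0.16 and no call.

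**Figure D1:**
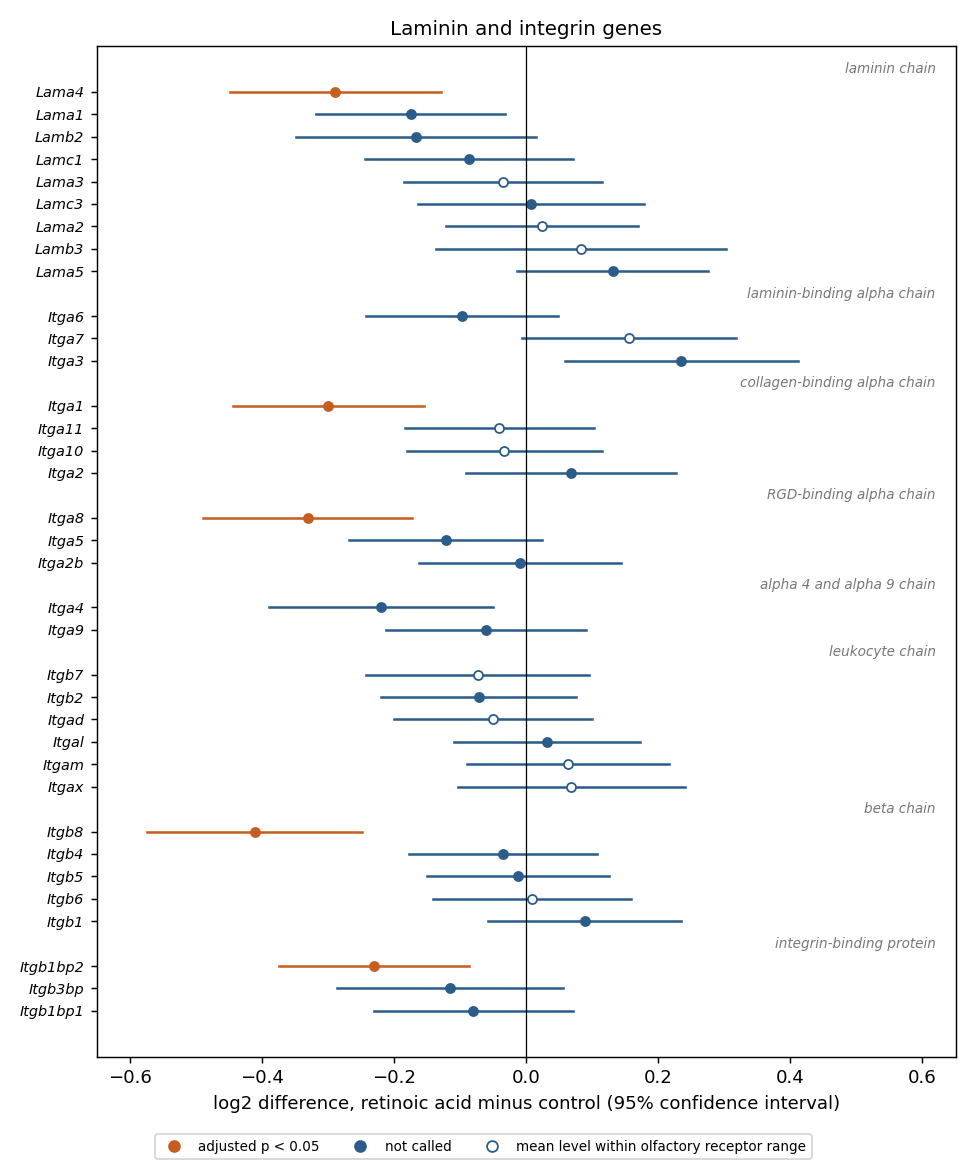
Log2 difference (retinoic acid minus control, x axis) of the members named in the text, ordered by role, with points for limma estimates from 3 pools per group and bars for 95% confidence intervals. The 5 orange members lie between −0.41 and −0.23 with intervals that do not reach 0, and open points mark the 11 members whose mean level lay within the olfactory receptor range.

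Itgb8, the beta chain that pairs with the alpha v chain in a receptor known for activating latent TGF-beta, had the largest difference of the set. Its level was 7.60, 7.54 and 7.56 in the control pools and 6.98, 7.25 and 7.24 in the retinoic acid pools. Every retinoic acid pool lay below every control pool, and retinoic acid pool 1 was the lowest. The mean fell from 7.57 ± 0.033 to 7.16 ± 0.15 (SD), a difference of −0.41 ± 0.08 (SE, 95% interval −0.57 to −0.25, adjusted p = 0.0024) that is 1.33-fold. The sources used here name no genome build for the file's coordinates, which place the gene on the minus strand of chromosome 6 from 146494978 to 146573064. In pooled RNA, here and below, fewer cells of a type and less RNA per cell cannot be told apart.

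Itga8, an alpha chain that pairs with the Itgb1 chain and binds fibronectin, tenascin and nephronectin, is known for its part in kidney formation and for its expression in mesenchyme. Its level was 7.64, 7.59 and 7.46 in the control pools and 7.18, 7.17 and 7.35 in the retinoic acid pools. The groups did not overlap, and control pool 3 and retinoic acid pool 3 came nearest to each other. The difference was −0.33 ± 0.07 (95% interval −0.49 to −0.17, adjusted p = 0.0085), a 1.26-fold fall. The file places Itga8 on the minus strand of chromosome 17 from 86427195 to 86649274.

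Itga1, the alpha chain of a receptor for collagens and laminins found on blood vessel and connective tissue cells, had levels of 6.63, 6.52 and 6.53 in the control pools. Its levels in the retinoic acid pools were 6.23, 6.22 and 6.32. All 3 retinoic acid pools lay below all 3 control pools, although the level is close to the olfactory receptor range. The difference was −0.30 ± 0.07 (95% interval −0.44 to −0.16, adjusted p = 0.009), a 1.23-fold fall. The call was lost without control pool 1, the highest of the controls, where the difference was −0.26 (adjusted p = 0.058). The gene lies on the minus strand of chromosome 2 from 47107838 to 47206261.

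Lama4, the laminin alpha chain best known from the basement membrane of blood vessels, was measured by 2 rows that lie 22.0 kb apart on the plus strand of chromosome 20. The row of higher mean (43077612 to 43158788) had levels of 8.64, 8.45 and 8.48 in the control pools and 8.22, 8.14 and 8.34 in the retinoic acid pools. The other row (43180813 to 43260729) had levels of 7.25, 7.28 and 7.17 in the control pools and 6.94, 6.86 and 6.86 in the retinoic acid pools. In both rows the groups did not overlap. The first row fell by 0.29 ± 0.08 log2 units (1.22-fold, 95% interval −0.45 to −0.13, adjusted p = 0.021). The second fell by 0.35 ± 0.07 (1.27-fold, 95% interval −0.49 to −0.21, adjusted p = 0.0028). The call of the first row was lost without control pool 1 (adjusted p = 0.12), retinoic acid pool 1 (0.062) or retinoic acid pool 2 (0.081), whereas the second row was called in each of the 15 alternative settings that kept it apart.

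Itgb1bp2 encodes melusin, a protein of muscle cells that binds the inner tail of the Itgb1 chain. Its level was 6.95, 6.92 and 6.88 in the control pools and 6.60, 6.75 and 6.72 in the retinoic acid pools. The groups did not overlap, yet the difference of −0.23 ± 0.07 (95% interval −0.38 to −0.09, adjusted p = 0.041) lay closest to the threshold of the 5 calls. It was lost without any 1 of 5 pools (every control pool, and retinoic acid pools 1 and 3), where the adjusted p was 0.07 to 0.16, and also after median centring (0.054) and in the authors' deposited table (0.059). Heart muscle markers had 7 of 8 called higher in these pools, beside 7.69% of all rows. Those were Myl7, Actc1, Tnnt2, Myh6, Myh7, Nkx2-5 and Tnni1. The mean level of the list was 6.55 to 6.63 in the control pools and 7.30 to 7.43 in the retinoic acid pools. How these markers relate to the fall of Itgb1bp2 was not tested.

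**Figure D2:**
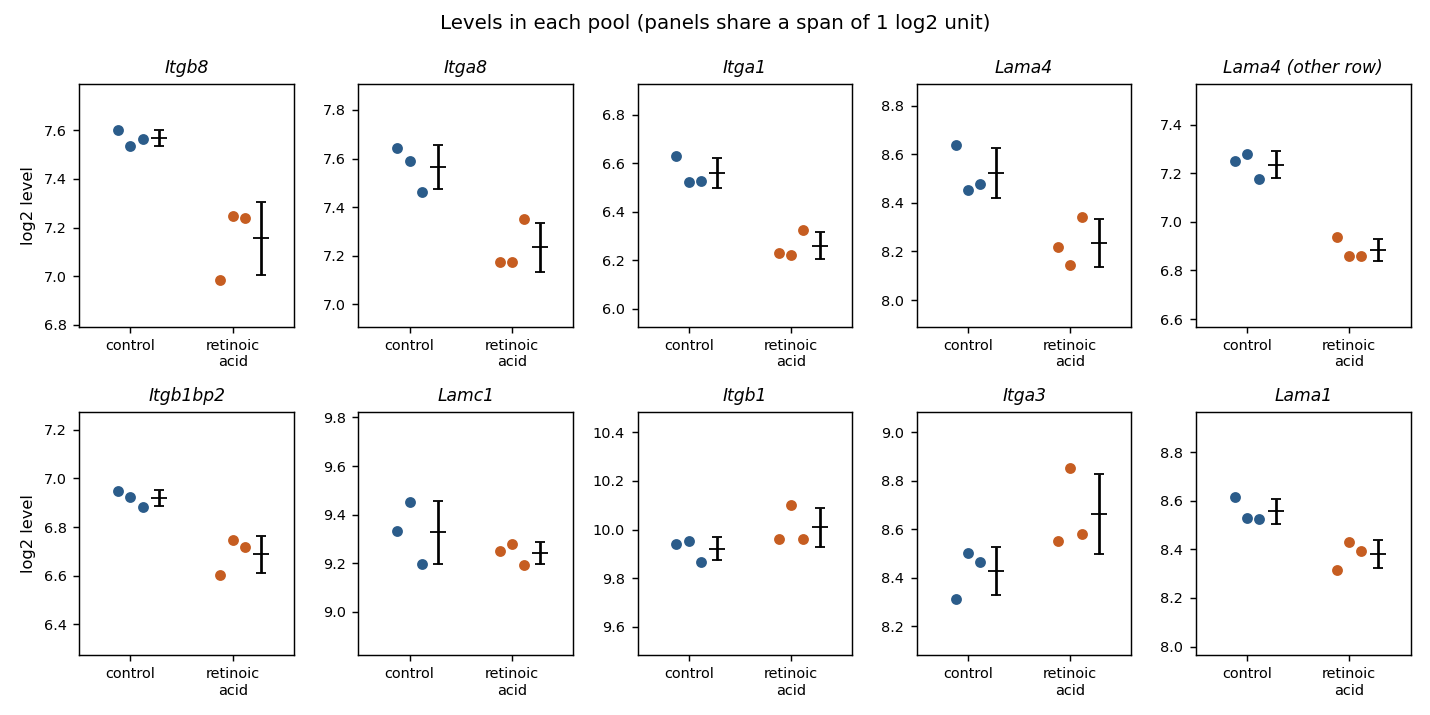
Log2 level (y axis) in each of the 3 control (blue) and 3 retinoic acid (orange) pools for the called members, both Lama4 rows, and Lamc1, Itgb1, Itga3 and Lama1, which were not called. Horizontal marks and bars are the mean and SD, every panel spans 1 log2 unit, and the groups of the 6 called rows do not overlap, while those of Lamc1 do.

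Retinoic acid receptors are known to bind pairs of hexamers, of which the letters AGGTCA and the related letters AGTTCA were searched. The stretches before the start sites of 4 chain genes are shown, chosen only because each gene was called. Each runs from 250 bases before to 50 bases after the gene start in RefSeq (assembly GRCr8, not the coordinates of the array file), 5′ to 3′ on the gene's strand. Capitals mark any match to these hexamers, to the GC box letters GGGCGG, or to the TATA box letters TATAAA, searched on both strands, so that a match on the opposite strand reads as the reverse complement. No match in these windows overlaps another.
Lama4, chr20:43946648-43946947, plus strand: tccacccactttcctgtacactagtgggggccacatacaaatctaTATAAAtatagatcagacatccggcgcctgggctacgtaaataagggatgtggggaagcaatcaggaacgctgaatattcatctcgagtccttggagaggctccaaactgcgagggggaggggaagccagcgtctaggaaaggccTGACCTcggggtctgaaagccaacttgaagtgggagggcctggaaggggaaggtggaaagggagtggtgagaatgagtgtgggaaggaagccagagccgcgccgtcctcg
Itgb8, chr6:146351196-146351495, minus strand: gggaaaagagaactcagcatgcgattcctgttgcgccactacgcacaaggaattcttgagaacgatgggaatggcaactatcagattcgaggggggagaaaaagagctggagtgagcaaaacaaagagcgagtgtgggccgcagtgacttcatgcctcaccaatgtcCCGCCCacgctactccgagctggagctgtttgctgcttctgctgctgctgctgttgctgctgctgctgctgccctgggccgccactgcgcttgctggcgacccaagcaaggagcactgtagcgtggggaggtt
Itga8, chr17:80410584-80410883, minus strand: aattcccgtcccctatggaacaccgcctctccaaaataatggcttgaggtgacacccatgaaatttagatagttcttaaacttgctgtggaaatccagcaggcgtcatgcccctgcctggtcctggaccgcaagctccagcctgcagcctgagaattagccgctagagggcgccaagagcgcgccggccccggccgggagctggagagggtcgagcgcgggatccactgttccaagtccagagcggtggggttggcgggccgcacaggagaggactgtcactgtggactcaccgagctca
Itga1, chr2:48545234-48545533, minus strand: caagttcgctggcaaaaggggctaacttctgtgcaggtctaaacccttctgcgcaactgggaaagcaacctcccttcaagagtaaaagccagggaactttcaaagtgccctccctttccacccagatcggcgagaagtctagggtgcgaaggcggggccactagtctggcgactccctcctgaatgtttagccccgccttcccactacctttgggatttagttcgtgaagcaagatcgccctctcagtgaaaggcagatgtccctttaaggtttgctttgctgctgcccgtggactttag

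Lama4 held 1 AGGTCA match, on the strand opposite the gene and with its first base at position −60 from the gene start, and 1 TATAAA match at −205. Itgb8 held 1 GGGCGG match, on the opposite strand at −83. Itga8 and Itga1 held none of these letters in the window. The promoter of the fifth called member, Itgb1bp2, which is not printed since it encodes no chain, held 1 AGGTCA match on the opposite strand at −193. Of 33469 rat promoters of the same length in the table, 16.2% held AGGTCA, 14.5% AGTTCA, 33.1% GGGCGG and 14.2% TATAAA. A match is a string of letters and not a binding site. The GC share of the windows was 55.0% for Lama4, 57.3% for Itgb8, 60.3% for Itga8 and 53.7% for Itga1, and the median of the 28 members with an entry was 58.0%, against 51.7% over all promoters.

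Among the 10 laminin chains Lama4 alone was called, and the median difference was −0.06. Lama1, known in the mouse as an early laminin alpha chain of the embryo and present under the neural plate, had levels of 8.62, 8.53 and 8.52 in the control pools and 8.32, 8.43 and 8.39 in the retinoic acid pools. Its groups did not overlap, and the difference was −0.17 ± 0.07 (95% interval −0.32 to −0.03, adjusted p = 0.13). Lama1 passed the threshold after quantile or cyclic loess normalization (−0.23 in both) and with array weights (−0.20, adjusted p = 0.049). Lama5, the alpha chain that succeeds Lama1 in many epithelia, pointed the other way. Its levels were 8.47, 8.625 and 8.52 in the control pools and 8.71, 8.65 and 8.649 in the retinoic acid pools, which did not overlap. Its difference was 0.13 ± 0.07 (95% interval −0.01 to 0.27, adjusted p = 0.29). Lama1 and Lama5 thus lay on opposite sides of 0, and neither was called.

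Lamc1, the gamma chain of most laminins, had overlapping levels of 9.33, 9.45 and 9.20 in the control pools and 9.25, 9.28 and 9.19 in the retinoic acid pools. Its difference of −0.09 ± 0.07 (95% interval −0.24 to 0.07, adjusted p = 0.57) was within the spread between pools. Lamb2, a beta chain of synapses, kidney and muscle, had a difference of −0.17 (adjusted p = 0.28) with a wide spread in the retinoic acid pools (7.39, 6.99 and 7.19). Lama2, the muscle chain, Lama3 and Lamb3, both of the skin laminin, and Lamc3 had differences of −0.035 to 0.08, and in each the sign turned when 1 pool was left out.

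The 3 alpha chains grouped here as laminin-binding (Itga3, Itga6 and Itga7) gave 0 calls. Itga1, called lower and also part of a laminin receptor, is grouped with the collagen-binding chains. Itga3, which pairs with the Itgb1 chain and binds the Lama5-bearing laminins, had the largest difference above 0 in the set. Its level was 8.31, 8.50 and 8.47 in the control pools and 8.55, 8.85 and 8.58 in the retinoic acid pools. The groups did not overlap, but retinoic acid pool 2 stood above the other 5 pools. The difference was 0.23 ± 0.08 (95% interval 0.06 to 0.41, adjusted p = 0.094), and without that pool it was 0.14. When only rows above the median level were tested, Itga3 was called higher (adjusted p = 0.035), as it was with the replicate number as a block (adjusted p = 0.034). Itga6, the alpha chain of the laminin receptor of many epithelia and stem cells, had levels of 8.09, 8.17 and 8.004 in the control pools and 7.99, 8.02 and 7.97 in the retinoic acid pools. These overlapped, with a difference of −0.10 ± 0.07 (95% interval −0.24 to 0.05, adjusted p = 0.47). Itga7, the laminin receptor chain of muscle, was within the olfactory receptor range with a difference of 0.16 (adjusted p = 0.25), and it was called higher (adjusted p = 0.049) without retinoic acid pool 2.

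Of the 4 collagen-binding alpha chains Itga1 was called. Its neighbour Itga2, 31.7 kb away on the same strand of chromosome 2, had a difference of 0.07 (adjusted p = 0.69). Itga10 and Itga11, chains of cartilage and connective tissue, had differences of −0.03 and −0.04 at levels within the olfactory receptor range. Of the 3 alpha chains that recognise the RGD motif Itga8 was called. Itga5, the fibronectin receptor chain needed for mesoderm and vessel formation in the mouse, had levels of 9.32, 9.46 and 9.31 in the control pools and 9.27, 9.27 and 9.19 in the retinoic acid pools. The groups did not overlap, and the difference was −0.12 ± 0.07 (95% interval −0.27 to 0.02, adjusted p = 0.33). After quantile or cyclic loess normalization it was −0.21 and −0.22, past the threshold. Itga2b, the platelet chain, had a difference of −0.01 (adjusted p = 0.97).

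Itga4, which binds fibronectin and the vascular adhesion molecule VCAM, had levels of 6.94, 6.63 and 6.73 in the control pools and 6.48, 6.62 and 6.54 in the retinoic acid pools. The groups were separated by a narrow margin, between control pool 2 and retinoic acid pool 2, and control pool 1 was the highest. The difference was −0.22 ± 0.08 (95% interval −0.39 to −0.05, adjusted p = 0.10), and Itga4 was called with array weights (adjusted p = 0.024). Its relative Itga9 had a difference of −0.06 (adjusted p = 0.71). The 6 chains of leukocyte integrins (Itgal, Itgam, Itgax, Itgad, Itgb2 and Itgb7) differed by −0.07 to 0.07 with 0 calls. Itgam, Itgax and Itgad lie side by side on the plus strand of chromosome 1, with gaps of 10601 and 20018 bases.

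Of the 5 beta chains outside the leukocyte integrins Itgb8 alone was called. Itgb1, the beta chain shared by most laminin, collagen and fibronectin receptors, had levels of 9.94, 9.95 and 9.87 in the control pools and 9.963, 10.10 and 9.961 in the retinoic acid pools. The groups did not overlap, by a margin smaller than their SDs. The difference was 0.09 ± 0.07 (95% interval −0.06 to 0.23, adjusted p = 0.52), and its sign depended on scaling, with −0.051 after quantile and −0.047 after cyclic loess normalization. Itgb4, the hemidesmosome chain, had a difference of −0.03 (adjusted p = 0.84). Itgb5 and Itgb6, both partners of the alpha v chain as Itgb8 is, had differences of −0.01 (adjusted p = 0.95) and 0.01 (adjusted p = 0.97). The sign of Itgb6 also turned under both scalings. The other integrin-binding proteins were Itgb3bp, a centromere protein also named for the Itgb3 chain, with −0.12 (adjusted p = 0.46), and Itgb1bp1, which competes with talin for the Itgb1 tail, with −0.08 (adjusted p = 0.59).

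Counting separation of the groups in place of a threshold gave a similar picture. In 8 members (Itgb8, Itga8, Itga1, Lama4, Itgb1bp2, Lama1, Itga4 and Itga5) every retinoic acid pool lay below every control pool, beside 6.95% of all tested rows. In 3 members (Lama5, Itga3 and Itgb1) every retinoic acid pool lay above, beside 19.0% of all rows, and in either direction 26.0% of all rows had separate groups.

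**Figure D3:**
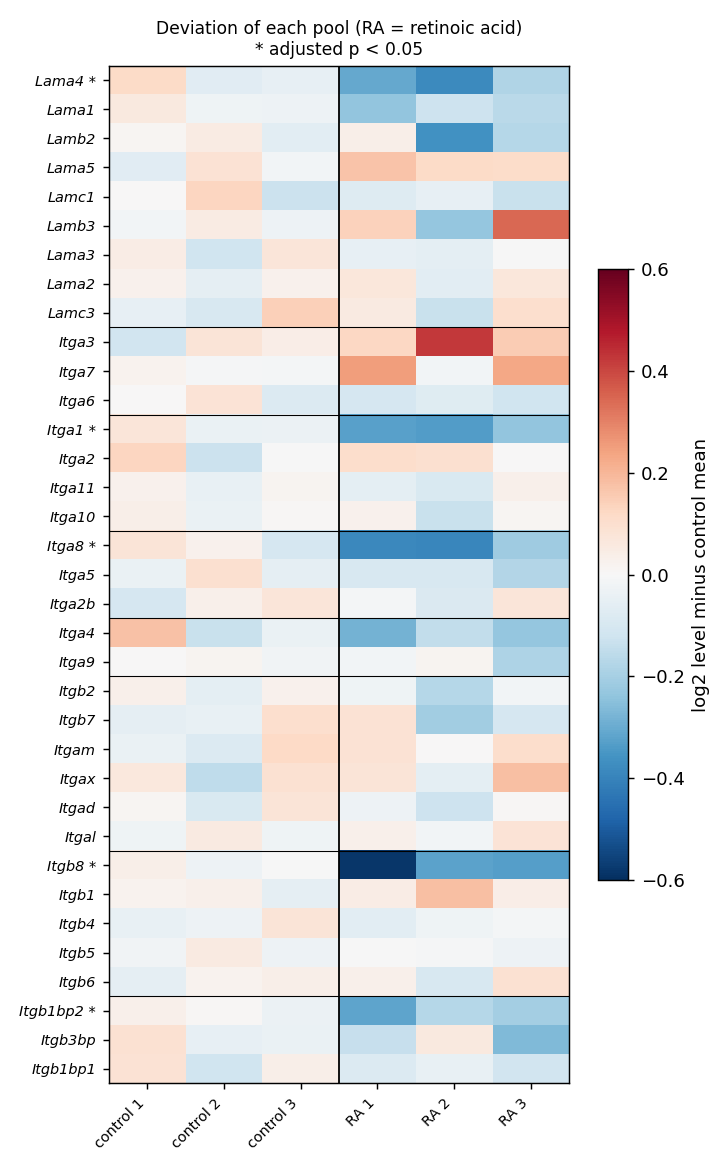
Deviation of each of the 6 pools (columns) from the mean of the 3 control pools on the log2 scale (colour, blue lower and red higher) for the members named in the text (rows, grouped by role in the order of the text, asterisks for the 5 called). Lama4, Itga1, Itga8, Itgb8 and Itgb1bp2 are blue in all 3 retinoic acid pools, and Itga3 and Lama5 are red in all 3.

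Genes that work beside the members were read from 5 lists of partner genes, with 100 genes on the array, of which 6 were called higher and 7 lower, where all tested rows had 7.69% called higher and 2.06% lower. After quantile normalization the partner genes had 2 called higher and 10 lower, and after cyclic loess normalization 2 and 9. The count higher was also 2 without control pool 1, control pool 3 or retinoic acid pool 2 and 3 without retinoic acid pool 1, and the count lower was 3 without control pool 2 and 4 without control pool 1 or retinoic acid pool 1 or 3. Of the 19 other basement membrane genes measured of 23 listed, 2 were called lower and 1 higher, with a median difference of −0.06. Sparc, a collagen-binding protein of the basement membrane, fell by 0.49 ± 0.08 log2 units (adjusted p = 0.00065) and was called in 16 of 16 alternatives. Nid1, the nidogen that ties laminin to collagen IV, fell by 0.27 ± 0.07 (adjusted p = 0.018), and its call was lost without control pool 1, control pool 2, retinoic acid pool 1 or retinoic acid pool 3 (adjusted p = 0.052 to 0.088). Frem2, a basement membrane protein of the Fraser complex, rose by 0.29 ± 0.08 (adjusted p = 0.02), a call lost without control pool 3 (0.11) or retinoic acid pool 2 (0.069). The network collagens Col4a1 and Col4a2 had differences of −0.10 and −0.01.

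Of 21 other integrin ligands measured of 24 listed, 2 were called lower and 1 higher. Postn, periostin, a ligand of alpha v integrins, fell by 0.50 ± 0.08 (adjusted p = 0.00053), and Tgfbi, a matrix protein induced by TGF-beta, fell by 0.38 ± 0.07 (adjusted p = 0.0017). Cyr61, a secreted ligand of alpha v integrins, rose by 0.71 ± 0.07 (adjusted p = 1e-05). These 3 were called in 16 of 16 alternatives. Fn1, fibronectin, had a difference of 0.16 (adjusted p = 0.15).

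Of 19 other laminin receptor genes measured of 20 listed, among them the dystroglycan complex, 1 was called in each direction. Dag1, dystroglycan, which binds laminin directly at the cell surface, rose by 0.23 ± 0.07 (adjusted p = 0.033). Sdc3, a syndecan of nervous tissue, fell by 0.24 ± 0.07 (adjusted p = 0.048). Each of these calls was lost in 8 of 16 alternatives. Both genes lost theirs when any of the control pools or retinoic acid pools 1 or 2 was left out. Dag1 also lost its call after quantile or cyclic loess normalization (differences of 0.14 and 0.13, adjusted p = 0.19 and 0.2).

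Of 33 cytoplasmic adhesion proteins measured of 35 listed, which include talins, kindlins, vinculin and focal adhesion kinase, 2 were called lower and 0 higher, with 4 higher and 2 lower at an unadjusted p under 0.05. Tns1, a tensin, was called lower at −0.29 ± 0.08 (adjusted p = 0.026). It lost its call without control pool 2 or 3 or retinoic acid pool 1 or 3 (adjusted p = 0.051 to 0.13). Of 8 membrane partners of integrins, 3 were called higher and 0 lower, with a median of 0.17 against 0.033 over all rows. All 8 lay above the olfactory receptor range, where 11.4% of rows were called higher and 2.89% lower. Slc3a2, which binds beta chain tails, rose by 0.29 ± 0.07 (adjusted p = 0.014). Cd151, the tetraspanin that holds Itga3 and Itga6 receptors, rose by 0.27 ± 0.07 (adjusted p = 0.02), and Cd63, another tetraspanin, rose by 0.27 ± 0.08 (adjusted p = 0.035). None of these 3 was called after quantile or cyclic loess normalization, where their differences were 0.10 to 0.16, or without control pool 1. Slc3a2 also lost its call without control pool 3, and Cd151 without control pool 2 or retinoic acid pool 1 or 2. Cd63 lost its call without any 1 pool except retinoic acid pool 3. The call of Cd63 was also lost after median centring (adjusted p = 0.07) and in the authors' deposited table (0.06).

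**Figure D4:**
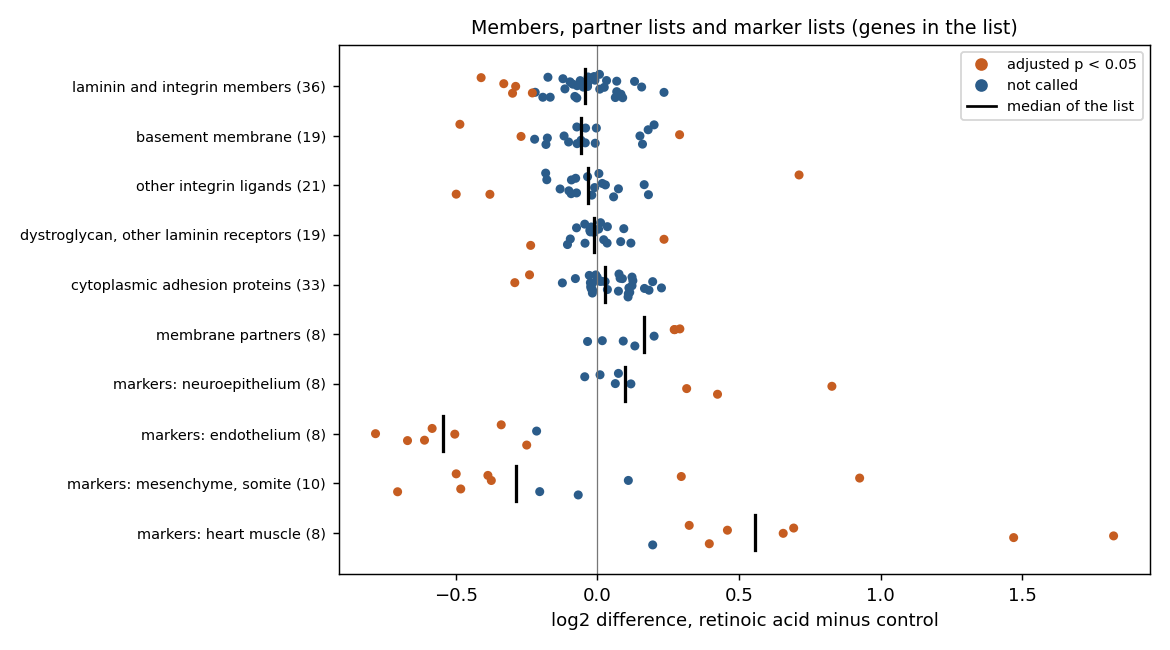
Log2 difference (retinoic acid minus control, x axis) of each gene in the member set, the 5 partner lists and 4 of the marker lists, with the number of genes in brackets, orange for adjusted p under 0.05 and a vertical bar for the median. The medians of the members and of the first 4 partner lists lie between −0.06 and 0.03, that of the endothelial markers at −0.54 and that of the heart muscle markers at 0.56.

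Markers of the cells these pools could hold were read beside the members. All 8 neuroepithelial markers measured lay above the olfactory receptor range, and the mean level of their list was 8.16 to 8.23 in the control pools and 8.37 to 8.46 in the retinoic acid pools, with 3 called higher (Sox2, Pax6 and Fabp7) and 0 lower. Markers of other cell types were measured above that range as well. Of 8 endothelial markers 7 were called lower (Cdh5, Cd34, Emcn, Tie1, Esam, Flt1 and Egfl7), and the mean level of the list was 8.32 to 8.43 in the control pools and 7.82 to 7.95 in the retinoic acid pools. Of 10 mesenchyme and somite markers 5 were called lower (Col1a1, Postn, Lum, Pdgfra and Col3a1) and 2 higher (Meox1 and Tcf15). Postn is the same row that was counted above among the integrin ligands called lower. The mean of the mesenchyme and somite list was 8.40 to 8.51 in the control pools and 8.31 to 8.34 in the retinoic acid pools. Without control pool 2, 1 of the markers in that list was called higher. These lists moved in the same pools as Lama4, Itga1, Itga8 and Itgb8, and their part in the falls of these genes was not tested.

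Calls in the other marker lists are to be read beside the 7.69% of all rows called higher and 2.06% called lower. Erythroid markers had 2 of 7 called higher, at list means of 8.94 to 9.08 and 9.12 to 9.17. Surface ectoderm markers had 3 of 8 called higher (7.84 to 7.99 and 8.03 to 8.13). Neural crest markers had 1 of 7 called in each direction (7.54 to 7.65 and 7.60 to 7.69), and endoderm and yolk sac markers had 2 of 9 called lower (7.19 to 7.23 and 7.14 to 7.17). Leukocyte markers, read beside the leukocyte integrins, had 1 of 9 called in each direction (6.35 to 6.45 and 6.43 to 6.49), with Ptprc and Aif1 within the olfactory receptor range. Megakaryocyte markers, read beside Itga2b, had 1 of 7 called higher (6.19 to 6.25 and 6.27 to 6.38), with 4 of 7 above that range. Several of these counts rested on the scaling or on 1 pool. Surface ectoderm had 1 called higher after quantile, cyclic loess or median scaling, in the authors' deposited table, and without control pool 2 or retinoic acid pool 1 or 2. Erythroid markers had 1 called higher after quantile or cyclic loess normalization, and endoderm and yolk sac 1 called lower in the authors' deposited table or with any pool left out. Neural crest had 0 called lower without any 1 pool except control pool 3, and leukocyte markers had 0 in each direction without control pool 2 or retinoic acid pool 2. Among rows above the median level, leukocyte and megakaryocyte markers had 0 called higher.

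The 6 samples were alike as arrays. Medians over all tested rows were 6.73 to 6.79, and Pearson correlations across rows, which are not independent replicates, were 0.9965 to 0.9974 within groups and 0.9937 to 0.9947 between them. Over all rows 1558 were called higher and 417 lower, 78.9% of calls higher. After quantile normalization these were 823 and 785 (51.2% higher) and after cyclic loess normalization 859 and 767 (52.8% higher). The 5 members remained called lower under both, joined by Lama1 and Itga5. Itgb8 and Itga8 were called lower in all 16 alternatives, with adjusted p-values of 0.00032 to 0.014 for Itgb8 and 0.0019 to 0.047 for Itga8.

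**Figure D5:**
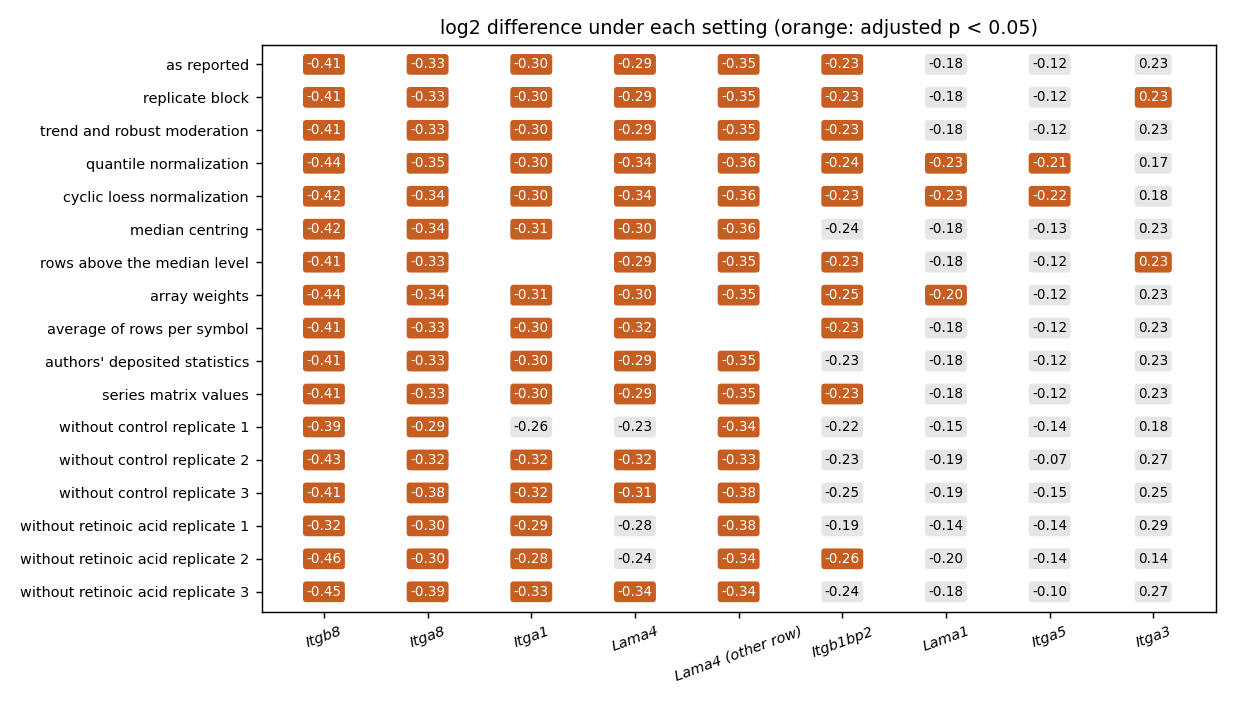
Log2 difference (number in each cell) of the called members, the other Lama4 row, Lama1, Itga5 and Itga3 (columns) as reported and under 16 alternative settings (rows), orange where the adjusted p was under 0.05. Itgb8 and Itga8 are orange throughout, Itga1 and Lama4 lose their calls with some pools left out, and empty cells mark settings that do not hold that row.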

How the data were processed

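The 6 arrays, 3 control and 3 retinoic acid pools, were read from 1 table. Its sample columns hold log2 levels that the authors normalized, per the file headers, and that scale follows from the deposited fold change column, which equals the difference of group means. The authors also deposited t and B scores and p-value columns, per the file headers. Limma stands without a version in the submitters' processing notes. The sources used here give no array design, way of normalizing or genome build. Columns headed WT were taken for the controls with the same numbers, because the remaining ones are headed RA. There is no read depth in array data, so precision is limited by how many arrays there are.

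Of 29656 rows, 167 array controls and 9231 rows with no name or accession were left out, leaving 20258. These were fitted together with limma 3.58.1 (R 4.3.3, lmFit and eBayes), as a two-sided test with no block, Benjamini-Hochberg adjustment and a threshold of 0.05. All 36 members matched RefSeq by Entrez identifier, and promoters came from its GRCr8 table. The members, the 5 partner lists and the 10 marker lists were chosen with earlier results of these data known, so their directions are not independent evidence. Values per sample are given for every called member, for Lama1, Lama5, Lamc1, Itga3, Itga5, Itga6 and Itgb1, and for the 3 members of smallest p not called. Called partner genes are named, and some genes that these rules name are not reported here. Also named are Col4a1, Col4a2 and Fn1, chosen after their values were seen. The fit was tested on simulated data, in which 1.55% of calls were false. The 16 alternatives were a block for the replicate number, moderation with trend and robust options, quantile, cyclic loess and median scaling, rows above the median level, array weights, averaged rows per symbol, the authors' deposited statistics, the values of the series matrix, and leaving out each pool. Tables were made with pandas 2.3.3 and figures with matplotlib 3.10.9.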

Additional observations from a re-analysis of the deposited data

How the results depend on the processing

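The count of members called lower (5) was 2 to 4 with 1 pool left out. It was 7 after quantile or cyclic loess normalization or with array weights. The count of members called higher (0) became 1 with the replicate number as a block and among rows above the median level (Itga3 in both), and 1 without retinoic acid pool 2 (Itga7), so leaving out pools gave 0 to 1. Over all tested rows, calls higher were 823 and 859, and calls lower 785 and 767, after quantile and cyclic loess normalization, and 949 to 1261 and 254 to 352 with 1 pool left out (949 without control pool 3, 1019 without retinoic acid pool 2, 254 and 262 without control pools 1 and 2). Partner genes called higher (6) were 2 after either normalization and 2 to 6 with 1 pool left out, and those called lower (7) were 10 after quantile and 9 after cyclic loess normalization and 3 to 5 with 1 pool left out. Same-numbered control and retinoic acid pools correlated in their deviations at −0.11, 0.235 and 0.235, and pools of different numbers at −0.371 to 0.201. The deviations within a group sum to 0, so these values cannot decide whether the numbers pair the samples. With that replicate block 5 members were called lower and 1 higher, and 540 and 1876 of all rows. The sign turned, with no call, for Itga2b with array weights (0.0415), for Itgb1 (−0.0510 and −0.0473) and Itgb6 (−0.0029 and −0.0104) after quantile and cyclic loess normalization, and for 11 members when 1 pool was left out. The ranges were Lamb3 −0.0472 to 0.2400, Lama3 −0.0956 to 0.0019, Lama2 −0.0020 to 0.0673, Lamc3 −0.0398 to 0.0788, Itga10 −0.0621 to 0.0184, Itga2b −0.0594 to 0.0294, Itga9 −0.1006 to 0.0016, Itgax −0.0087 to 0.1311, Itgb4 −0.0584 to 0.0029, Itgb5 −0.0275 to 0.0141 and Itgb6 −0.0326 to 0.0616. Of 572 values of members under the alternatives, 529 kept direction and side of the threshold, 11 lost the call, 9 gained it and 23 changed sign without a call. The 529 do not measure how stable the calls are, since 31 of the 36 members were not called as reported and some settings could change little. The 11 losses fell on Itgb1bp2 (7), Lama4 (3) and Itga1 (1). Series matrix values were identical to the table. A sample of 3 pools per group and signal near the olfactory receptor range limit what can be called.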
